A study of Mus musculus with 35 samples.

Results

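Among mice given Urolithin A, those with 1 inactivated copy of Polb were compared with those that had both copies, across the 760 hippocampal genes of the deposited table. The comparison takes 13 of the 35 mice of the study, chosen by genotype and treatment in the sample titles: 6 treated 3xTgAD/PolB+/- mice (called ADP_UA here, 2 males and 4 females) and 7 treated 3xTgAD mice (AD_UA, 4 males and 3 females). Both groups carry Tg(APPSwe,tauP301)L1Lfa and the further allele of the 3xTgAD line on C57BL6/J, and the ADP_UA mice also carry heterozygous Polbtm1Rsky. Both received Urolithin A at 200 mg/kg/day by gavage for 5 months and were 18 months old, so neither group is free of the transgenes or of the treatment. The same genotypes with vehicle (15 mice, called AD_veh with 8 and ADP_veh with 7) and vehicle-treated wild-type mice (WT_veh, 7) are used only for reference. No treated wild-type mouse and no treated mouse with the Polb allele alone was among the samples, and Polb itself was not analysed here, so each genotype rests on its label.

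DNA polymerase beta fills the short gap left when base excision repair removes a damaged base, and it also trims the sugar remnant that blocks ligation. This pathway deals with oxidised, alkylated and deaminated bases, which arise steadily in neurons, and mice with 1 copy of Polb have a lowered capacity for it. In 3xTgAD mice, human mutant APP and tau are expressed in neurons from a Thy1 cassette, and amyloid and tau deposits form in the hippocampus with age. Urolithin A is made by gut bacteria from ellagic acid and is known for promoting mitophagy, the removal of damaged mitochondria by autophagy.

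Each value is a normalised barcode count on the log2 scale from whole hippocampal tissue, so a difference of 1 is a doubling of the reported level. In such bulk tissue, fewer cells of a type and less RNA per cell cannot be told apart. The difference between the groups is given as ADP_UA minus AD_UA, adjusted for sex in a limma fit over all 35 mice, with its standard error (SE). A gene with a higher or lower mean is one with a positive or negative difference in this fit. Means are given with the SD, for 6 ADP_UA and 7 AD_UA mice throughout.

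Neuronal markers were high in every treated mouse, with Snap25, a SNARE protein of nerve terminals, between 12.01 and 13.47, and the tissue label could not be checked against hippocampal field markers, since Prox1 and Wfs1 are not analysed here. Several treated mice stood apart in a gene of another brain region. Adora2a, the adenosine receptor enriched in striatum, was at 8.6 in AD_UA 3, 7.13 in AD_UA 8 and 6.07 in ADP_UA 6, and between 2.35 and 3.98 in the other 10 treated mice. Pde1b, also enriched in striatum, was highest in the same 3 mice (10.24, 9.73 and 9.07). Pde1c, the remaining gene of the striatum and thalamus list described below, went the other way, with a higher mean in ADP_UA (0.54). Values without the 3 mice with high Adora2a (and without AD_veh 2, at 9.85, in the fit) are given for several genes and lists. They are not given for every gene that was highest or lowest in these mice, among them Camk4, Atp2b2 and Hspb8 below. Enpp2, expressed in choroid plexus and oligodendrocytes, ranged from 10 to 13.83 in AD_UA and from 9.80 to 14.48 in ADP_UA (difference 1.08, SE 0.90). The median over all genes was 8.79 ± 0.12 in AD_UA and 8.90 ± 0.09 in ADP_UA, with AD_UA 3 the lowest mouse (8.595) and ADP_UA 5 the highest (9.07). The sex-adjusted difference of these medians was 0.09 (exact permutation within sex, two-sided p = 0.149, where 525 arrangements allow no p below 0.0019). Over genes, the median difference between the groups was 0.10, and it was 0.01 when each mouse was centred on its own median. Values below are given with and without this shared level where it matters.

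No single gene separated the treated genotypes at the adjusted threshold. Limma called 0 of 760 genes (0% called, Benjamini-Hochberg adjusted p below 0.05), and the smallest adjusted p was 0.296. At an unadjusted p below 0.05 there were 96 genes, 12.6% of those tested, against 38 expected if no gene differed. The spread about this 38, here and below, widens where genes vary together across mice, and it was not tested. Of the 96 genes, 70 had a higher mean in ADP_UA (9.21% of all genes) and 26 a lower one (3.42%). This balance depended on the shared level: with median centring it was 31 higher and 47 lower, with quantile normalization 29 and 49, and without the 3 treated mice and the 1 vehicle mouse with Adora2a above 5 it was 39 (5.13%) and 40 (5.26%). Across all genes, 526 (69.2%) were higher in ADP_UA, and 386 (50.8%) after centring. The count of 96 became 167 without ADP_UA 6, 51 without ADP_UA 5, 56 without AD_UA 3 and 59 without ADP_UA 2. With weights that limma estimated for each mouse, 24 genes passed the adjusted threshold, 10 higher and 14 lower. Among treated mice the weights ran from 0.368 for ADP_UA 6 and 0.385 for AD_UA 3 to 4.97 for AD_UA 2. The next AD_UA mouse by weight was AD_UA 6 (1.8), so AD_UA 2 counted most in the AD_UA mean of this fit. No gene is reported as changed below, and the genes of smallest p are given by their values.

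**Figure D1:**
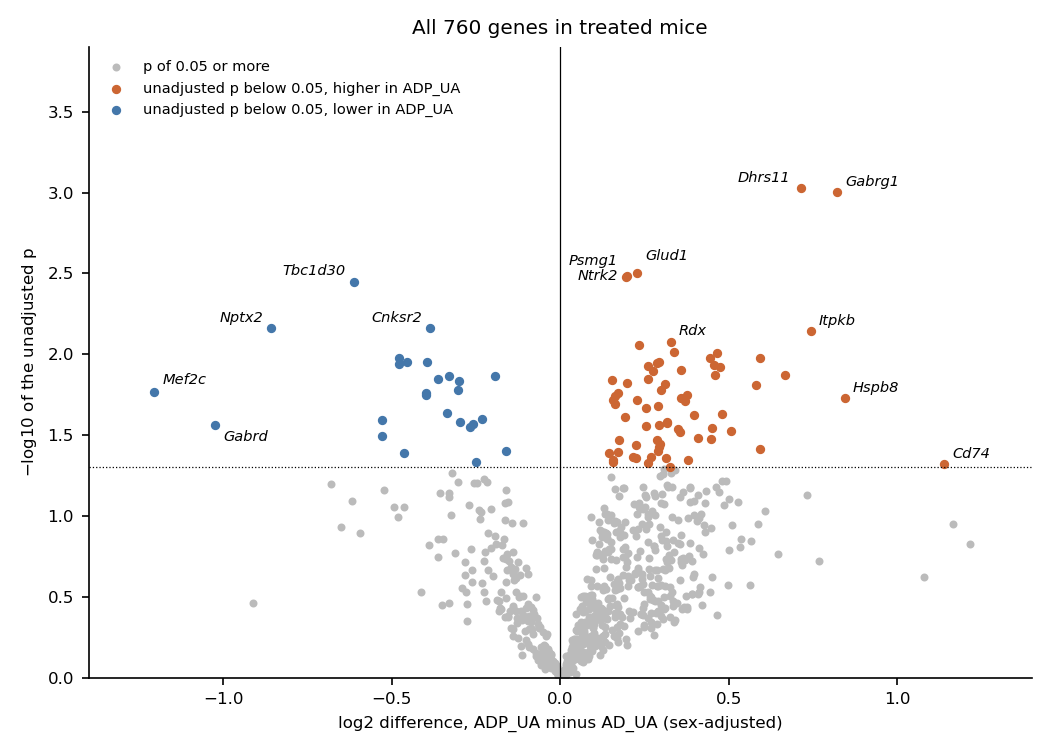
Each point is 1 of the 760 genes in treated mice, with the sex-adjusted log2 difference ADP_UA minus AD_UA on the horizontal axis and minus log10 of the unadjusted limma p on the vertical axis; the dotted line marks p of 0.05. Of 96 genes above the line, 70 lie to the right and 26 to the left, and after median centring the same count was 31 and 47; Dhrs11 and Gabrg1 are highest and Mef2c is farthest left.

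The 12 genes with a higher mean and the smallest p include the mitochondrial enzymes Glud1 and Mccc2, the receptor genes Gabrg1 and Ntrk2 and the regulators Srebf1 and Zfp36l1. Dhrs11, a short-chain dehydrogenase, ranged from 5.33 to 6.23 in AD_UA with a median of 5.82, and from 5.64 to 6.95 in ADP_UA with a median of 6.485. Of 6 ADP_UA mice, 5 lay above every AD_UA mouse, and ADP_UA 6 lay below the AD_UA median. The difference was 0.71 (SE 0.20, 1.64-fold, unadjusted p = 0.000937, adjusted p = 0.296). Gabrg1, a gamma subunit of the GABA-A receptor, ranged from 5.37 to 6.32 in AD_UA (median 5.95) and from 6.20 to 7.68 in ADP_UA (median 6.665). Here 6 of 7 AD_UA mice were below the lowest ADP_UA mouse, AD_UA 6 being the exception, and ADP_UA 2 was the highest mouse. Its difference was 0.82 (SE 0.23, 1.77-fold, unadjusted p = 0.000993, adjusted p = 0.296), and it was 0.68 without the mice with high Adora2a.

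Glud1, the mitochondrial glutamate dehydrogenase that feeds glutamate into the citric acid cycle, ranged from 11.03 to 11.50 in AD_UA (median 11.31) and from 11.40 to 11.66 in ADP_UA (median 11.555). All 6 ADP_UA mice lay above 5 of the 7 AD_UA mice, and the groups overlapped through AD_UA 2 and AD_UA 5. The difference was 0.23 (SE 0.07, 1.17-fold). Ntrk2 encodes TrkB, the receptor of brain-derived neurotrophic factor. It ranged from 11.84 to 12.13 in AD_UA (median 11.94) and from 12.08 to 12.25 in ADP_UA (median 12.185), and the groups met only through AD_UA 7, the highest of its group. The difference was 0.20 (SE 0.06, 1.15-fold). Psmg1, a chaperone of proteasome assembly, ranged from 7.48 to 7.77 in AD_UA (median 7.59) and from 7.69 to 7.92 in ADP_UA (median 7.79), with AD_UA 1 the only AD_UA mouse inside the ADP_UA range. Its difference was also 0.20 (SE 0.06).

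Itpkb, an inositol trisphosphate kinase of calcium signalling, was more spread within groups, from 6.5 to 7.94 in AD_UA (median 7.10) and from 7.04 to 8.68 in ADP_UA (median 8.035). The lowest ADP_UA mouse was again ADP_UA 6, and the difference was 0.74 (SE 0.26, 1.67-fold). Zfp36l1, which binds AU-rich messenger RNAs and speeds their decay, ranged from 6.73 to 8.21 in AD_UA (median 7.60) and from 7.81 to 8.51 in ADP_UA (median 8.13). AD_UA 6 lay above 4 of the 6 ADP_UA mice, and the difference was 0.59 (SE 0.22, 1.51-fold). Srebf1, the transcription factor of fatty acid synthesis, ranged from 8.11 to 8.73 in AD_UA (median 8.56) and from 8.54 to 9.38 in ADP_UA (median 8.90), a difference of 0.47 (SE 0.17, 1.38-fold). Of the ADP_UA mice 4 lay above all AD_UA mice. The remaining 4 genes were Tspan6, a tetraspanin (difference 0.44, SE 0.16), Fam213a, a peroxiredoxin-like redox protein (0.34, SE 0.12), Rdx, radixin, which ties membranes to actin (0.33, SE 0.12), and Mccc2, a subunit of the mitochondrial carboxylase of leucine breakdown (0.23, SE 0.08).

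For 9 of the 12 genes all 6 ADP_UA mice lay above the AD_UA mean, and for the other 3 (Dhrs11, Itpkb and Mccc2) 5 did. Both groups overlapped for all 12. The lowest AD_UA mouse was AD_UA 3 for 9 of them and AD_UA 8 for 3, which are the AD_UA mice with high Adora2a. Without the mice with high Adora2a, all 12 kept a higher mean in ADP_UA and 10 kept an unadjusted p below 0.05 in limma, Mccc2 (0.14) and Tspan6 (0.34) being the exceptions. After median centring 6 of the 12 did. The exact permutation of genotype within sex gave an unadjusted p below 0.05 for 10 of the 12. These genes were chosen by their limma p in the same mice, which favours these counts and the order of group means that follows. Set beside the other groups of the study, AD_UA had the lowest of the 5 group means for 10 of these genes and ADP_UA the highest for 10. Gabrg1, for example, was at 6.42 ± 0.43 (n = 7) in WT_veh, 6.22 ± 0.39 (n = 8) in AD_veh and 6.12 ± 0.33 (n = 7) in ADP_veh, between the treated means of 5.90 ± 0.28 and 6.75 ± 0.59.

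Only 2 of 760 genes (0.263%) had every ADP_UA mouse above every AD_UA mouse, and 0 had every ADP_UA mouse below. They are named because of that order, seen in the values. Fat1, an atypical cadherin, lay between 6.65 and 6.75 in all 7 AD_UA mice and between 6.86 and 7.62 in ADP_UA, highest in ADP_UA 5 and ADP_UA 6. Its SD was 0.04 in AD_UA, against 0.30 in ADP_UA, 0.42 in WT_veh, 0.21 in AD_veh and 0.45 in ADP_veh, so AD_UA was the narrowest of the 5 groups. Tmbim6, the Bax inhibitor of the endoplasmic reticulum membrane, lay between 10.84 and 11.29 in AD_UA and between 11.31 and 11.59 in ADP_UA, and its nearest mice were AD_UA 6 (11.29) and ADP_UA 3 (11.31). The differences were 0.47 (SE 0.18) for Fat1 and 0.23 (SE 0.09) for Tmbim6, each with adjusted p = 0.296.

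**Figure D2:**
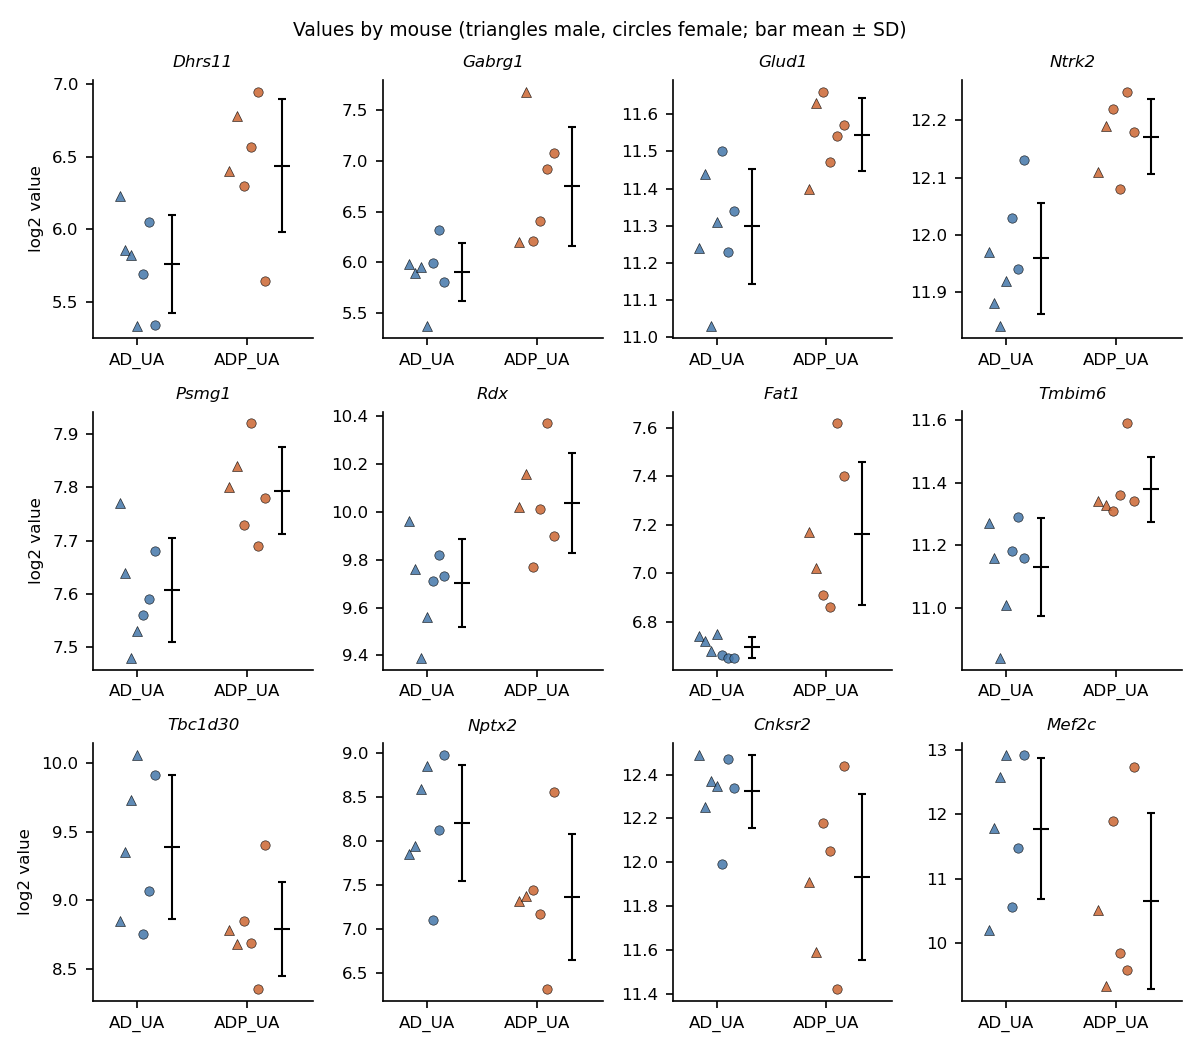
Log2 values of 12 genes in each treated mouse, AD_UA (blue, 7 mice) and ADP_UA (orange, 6 mice), with males as triangles, females as circles, and the group mean with its SD beside the points. Axes differ between panels and do not start at 0; the groups do not overlap for Fat1 and Tmbim6 and overlap for the other 10, and in the bottom row the highest ADP_UA mouse, at 9.40 for Tbc1d30 and 12.73 for Mef2c, is ADP_UA 6.

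The 12 genes with a lower mean in ADP_UA and the smallest p include synaptic proteins, a calcium exchanger and several regulators of small GTPases. Tbc1d30, a GTPase-activating protein of Rab proteins, ranged from 8.75 to 10.06 in AD_UA (median 9.35) and from 8.35 to 9.40 in ADP_UA (median 8.735). The AD_UA mice 3, 7 and 8 lay above all ADP_UA mice, while the other 4 lay within the ADP_UA range. The difference was -0.61 (SE 0.19, 0.654-fold, unadjusted p = 0.00356, adjusted p = 0.296). Nptx2, a secreted pentraxin that gathers AMPA receptors at excitatory synapses and follows neuronal activity, ranged from 7.11 to 8.98 in AD_UA (median 8.13) and from 6.32 to 8.56 in ADP_UA (median 7.35). It was highest in AD_UA 7, 8 and 3 and lowest in ADP_UA 5, and ADP_UA 6 was the only ADP_UA mouse above the AD_UA median. The difference was -0.86 (SE 0.30, 0.552-fold), and -0.87 without the mice with high Adora2a. Cnksr2, a scaffold protein of the postsynaptic density, ranged from 11.99 to 12.49 in AD_UA (median 12.35) and from 11.42 to 12.44 in ADP_UA (median 11.98), with 3 ADP_UA mice below all AD_UA mice. Its difference was -0.39 (SE 0.13), and -0.48 without the mice with high Adora2a.

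Several of the others act in neuronal signalling. Diras2, a small GTPase of the Ras family, ranged from 10.65 to 11.38 in AD_UA (median 10.76) and from 9.91 to 11.27 in ADP_UA (median 10.45). Here 5 ADP_UA mice lay below every AD_UA mouse and ADP_UA 6 lay above 6 of the AD_UA mice. The difference was -0.45 (SE 0.17). Slc8a2, a sodium-calcium exchanger of the neuronal membrane, ranged from 10.59 to 11.42 in AD_UA (median 11.18) and from 10.42 to 11.28 in ADP_UA (median 10.63), a difference of -0.40 (SE 0.15). The other 6 AD_UA mice lay between 11.09 and 11.42, and AD_UA 5 alone was as low as most ADP_UA mice. Chn1, chimaerin, a GTPase-activating protein of Rac, was at 13.63 ± 0.23 in AD_UA and 13.26 ± 0.28 in ADP_UA (difference -0.36, SE 0.14). Others were Rgs7bp, a membrane anchor of RGS proteins (-0.48, SE 0.18), Pcsk2, the convertase that processes neuropeptide precursors (-0.48, SE 0.18), Fam49a (-0.30, SE 0.12), Rasal2, a GTPase-activating protein of Ras (-0.30, SE 0.12), and Ica1, a protein of secretory vesicles (-0.19, SE 0.07). All 12 had an adjusted p of 0.296.

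The order of mice was much the same from gene to gene in this set. ADP_UA 6 was the highest ADP_UA mouse for 11 of the 12 genes, AD_UA 8 the highest AD_UA mouse for 10, and AD_UA 5 the lowest AD_UA mouse for 10. The groups overlapped for all 12, and the exact permutation within sex gave an unadjusted p below 0.05 for 3 of them (Cnksr2 0.0362, Chn1 0.0438 and Ica1 0.0248). Without the mice with high Adora2a all 12 kept a lower mean in ADP_UA and 11 kept an unadjusted p below 0.05, Ica1 being the exception (-0.16). After median centring all 12 had an unadjusted p below 0.05. Choosing these genes by their limma p in the same mice favours these counts and the order of group means that follows. ADP_UA had the lowest of the 5 group means for 11 of the 12 and AD_UA the highest for 7. Nptx2 was at 7.82 ± 0.54 (n = 7) in WT_veh, 7.74 ± 0.33 (n = 8) in AD_veh and 7.65 ± 0.43 (n = 7) in ADP_veh, between the treated means of 8.21 ± 0.65 and 7.37 ± 0.72.

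The largest differences at an unadjusted p below 0.05 lay outside these 24 genes, in genes that were very uneven within groups. Mef2c, a transcription factor of neurons and microglia and an Alzheimer risk locus, ranged from 10.21 to 12.92 in AD_UA (median 11.79) and from 9.34 to 12.73 in ADP_UA (median 10.18). It was at 12.57 or more in AD_UA 3, 7 and 8 and in ADP_UA 6, and 3 of these 4 mice are those with high Adora2a; AD_UA 7 had Adora2a at 3.15. The difference was -1.20 (SE 0.48, 0.434-fold, unadjusted p = 0.0172, adjusted p = 0.296), and -1.15 without the mice with high Adora2a. Gabrd, the delta subunit of GABA-A receptors outside synapses, was highest in the same 4 mice (10, 9.36, 9.98 and 9.34) and between 7.08 and 8.52 in the other 9. Its difference was -1.02 (SE 0.44, adjusted p = 0.317), and -0.88 without the mice with high Adora2a.

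In the opposite direction, Cd74, the invariant chain of MHC class II found in antigen-presenting cells, ranged from 5.44 to 9.13 in AD_UA (median 7.16) and from 7.03 to 10.74 in ADP_UA (median 8.475). The highest values were in the females ADP_UA 3, ADP_UA 4 and AD_UA 6, and the groups overlapped widely. The difference was 1.14 (SE 0.55, 2.20-fold, unadjusted p = 0.0478, adjusted p = 0.382). Hspb8, a small heat shock protein that works with Bag3 in selective autophagy, ranged from 5.55 to 8.30 in AD_UA (median 7.35) and from 6.89 to 8.85 in ADP_UA (median 7.97). It was lowest in AD_UA 8 and AD_UA 3, and ADP_UA 6 was the lowest of its group. The difference was 0.84 (SE 0.34, 1.80-fold, adjusted p = 0.296). Cd74 is named for its size, which was seen in the values.

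**Figure D3:**
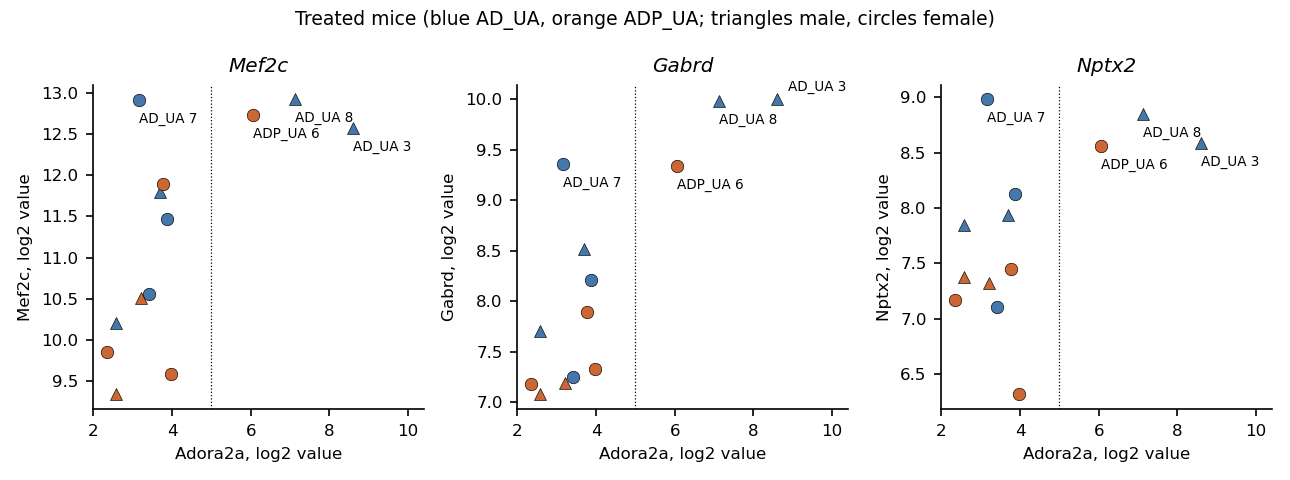
Each of the 13 treated mice by its log2 value of Adora2a (horizontal axes) and of Mef2c, Gabrd or Nptx2 (vertical axes), AD_UA in blue and ADP_UA in orange, males as triangles and females as circles; the dotted line marks Adora2a at 5. The 3 mice to the right of the line and AD_UA 7 hold the highest values of all 3 genes, up to 12.92 for Mef2c, 10 for Gabrd and 8.98 for Nptx2.

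Gene lists were described by the number of members with a higher mean in ADP_UA and by the median difference, beside 526 of 760 genes and a median of 0.10 over the whole table. With centring the same values over all genes were 386 and 0.01. Glial lists had medians above that of all genes in both scales. In the oligodendrocyte and myelin list, 43 of 43 members were higher in ADP_UA, with a median of 0.33 (0.23 with centring, where 42 were higher). Their list mean was 9.20 ± 0.41 in AD_UA and 9.54 ± 0.58 in ADP_UA, highest at 10.53 in ADP_UA 5, and it lay above the AD_UA mean in 4 of 6 ADP_UA mice. Without ADP_UA 5 the median was 0.131. The defining markers Mbp, Mog and Mag, proteins of compact and inner myelin, had differences of 0.41 (SE 0.39), 0.29 (SE 0.39) and 0.34 (SE 0.44), and of 0.19, 0.07 and 0.13 without ADP_UA 5. Mog and Mag turned negative with the myelin list mean as a covariate. Both are among the 43 genes of that mean, so a change of sign there is partly built in. Only 1 of the 43 myelin genes had an unadjusted p below 0.05, beside 12.6% of all genes. It was Cdk18, a kinase also expressed outside myelin, at 7.74 ± 0.25 in AD_UA and 8.23 ± 0.25 in ADP_UA (0.46, SE 0.18, adjusted p = 0.296). Among the next members by p were Abca2, a lipid transporter of oligodendrocytes (0.28, SE 0.15), and Tppp3, a tubulin-binding protein (0.59, SE 0.36).

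All 7 astrocyte genes had a higher mean in ADP_UA (median 0.29, 0.19 with centring). Of the 7, 3 had an unadjusted p below 0.05, beside 12.6% of all genes, and 0 did without the mice with high Adora2a. Gja1, the main gap junction protein of astrocytes, ranged from 10.36 to 11.35 in AD_UA (median 10.91) and from 11.01 to 11.32 in ADP_UA (median 11.23). The AD_UA mice 3 and 8 were lowest, AD_UA 5 was highest, and the difference was 0.27 (SE 0.10, adjusted p = 0.296) and 0.17 without the mice with high Adora2a. Sox9, an astrocyte transcription factor, ranged from 8.51 to 9.31 in AD_UA and from 9.1 to 9.85 in ADP_UA (0.40, SE 0.17), with 4 ADP_UA mice above all AD_UA mice. Mlc1, a membrane protein of astrocyte endfeet, differed by 0.29 (SE 0.13), and Wls, which carries Wnt proteins to the cell surface, by 0.32 (SE 0.17). The astrocyte list mean was 9.72 ± 0.26 in AD_UA and 10.05 ± 0.14 in ADP_UA, above the AD_UA mean in 6 of 6 ADP_UA mice, with AD_UA 3 (9.25) and AD_UA 8 (9.54) lowest. Without the mice with high Adora2a the astrocyte median was 0.21, and that of the myelin list was 0.24, beside 0.07 for all genes.

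Immune lists showed the same arrangement with wider spread. All 11 microglia and myeloid genes had a higher mean (median 0.30, 0.20 with centring) and 0 had an unadjusted p below 0.05, beside 12.6% of all genes. The list mean was 7.89 ± 0.47 in AD_UA and 8.31 ± 0.33 in ADP_UA, lowest in AD_UA 3 (7.19) and AD_UA 8 (7.51), and the median without the mice with high Adora2a was 0.18. All 9 disease-associated microglia genes had a higher mean (median 0.32), among them Apoe, the lipid carrier of astrocytes and activated microglia (0.43, SE 0.23), and Axl, a receptor of apoptotic cells (0.30, SE 0.19). Trem2, the lipid-sensing receptor of microglia, was among the lowest values of the table, at 3.94 ± 0.46 and 4.37 ± 0.34 (0.39, SE 0.38). Msn, a cytoskeletal linker of leukocytes, differed by 0.47 (SE 0.25) and Cyba, a subunit of NADPH oxidase, by 0.53 (SE 0.37). The 4 complement genes C1qa, C1qb, C1qc and Serping1 differed by 0.27 (SE 0.39), 0.20 (SE 0.35), 0.27 (SE 0.35) and 0.42 (SE 0.37), and their median of 0.27 was 0.16 without AD_UA 3 and 0.15 without the mice with high Adora2a. The 5 genes of cytokine and inflammatory signalling had a median of 0.38 (0.28 with centring, 0.23 without the mice with high Adora2a), led by Tnfrsf1a, a receptor of tumour necrosis factor (0.50, SE 0.28), Csf1 (0.41, SE 0.28) and Tgfbr2 (0.38, SE 0.28). Of 11 endothelium and vessel wall genes 9 were higher, with a median of 0.13 (0.03 with centring, -0.03 with quantile normalization).

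Lysosomal and lipid genes also lay above the median of all genes, and several of them (Ctss, Laptm5, Cd63, Apoe, Ugt8a) belong to the glial lists too. Of 14 lysosome and cathepsin genes 13 had a higher mean (median 0.26, 0.16 with centring). Acp2, lysosomal acid phosphatase, ranged from 9.50 to 9.83 in AD_UA (median 9.70) and from 9.66 to 10 in ADP_UA (median 9.90), with 4 ADP_UA mice above all AD_UA mice (0.16, SE 0.07, adjusted p = 0.301). Lamp2, the lysosomal membrane protein, differed by 0.36 (SE 0.20). All 10 lipid and cholesterol genes had a higher mean (median 0.29, 0.19 with centring, 0.18 without ADP_UA 5), with Srebf1 described above and Sptlc2, a subunit of the enzyme that starts sphingolipid synthesis (0.30, SE 0.16). Of 9 genes of Wnt, Notch, Hedgehog and BMP signalling 7 were higher (median 0.30, 0.17 without ADP_UA 5), with Smad5, a transducer of BMP signals, at 8.78 ± 0.24 in AD_UA and 9.15 ± 0.20 in ADP_UA (0.35, SE 0.15, adjusted p = 0.317).

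Urolithin A is studied for its action on mitochondria, so mitochondrial and autophagy genes are of particular interest here. Of the 8 autophagy and mitophagy genes 5 had a higher mean in ADP_UA (median 0.12, 0.02 with centring), close to the 69.2% over all genes. Bcl2, which restrains both apoptosis and Beclin-dependent autophagy, ranged from 5.91 to 6.79 in AD_UA (median 6.56) and from 6.57 to 7.01 in ADP_UA (median 6.86), with 4 ADP_UA mice above all AD_UA mice (0.33, SE 0.16, adjusted p = 0.392). Its relative Bcl2l1 differed by 0.15 (SE 0.08). Of 7 genes of mitochondrial dynamics, carriers and metabolism 6 were higher (median 0.23, 0.13 with centring). Mfn1, a mitofusin of outer membrane fusion, ranged from 7.62 to 8.09 in AD_UA (median 7.90) and from 7.79 to 8.34 in ADP_UA (median 8.24). The ADP_UA mice 1, 2, 4 and 5 lay above all AD_UA mice, and the difference was 0.26 (SE 0.10, adjusted p = 0.296) and 0.28 without the mice with high Adora2a. Aldh2, a mitochondrial aldehyde dehydrogenase, differed by 0.33 (SE 0.16), and Hadhb, of fatty acid oxidation, by 0.23 (SE 0.13). The 10 subunits of oxidative phosphorylation had a median of 0.06, with 9 higher as deposited but a median of -0.04 and 2 higher after centring. Of these 10, 0 had an unadjusted p below 0.05, beside 12.6% of all genes.

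Protein quality control genes had medians at or below that of all genes. Of 19 proteasome and ubiquitin genes 15 had a higher mean (median 0.09, turning to -0.01 with centring). An unadjusted p below 0.05 was found for 3 of the 19, near the share of 12.6% over all genes. They were Psmg1, the proteasome subunit Psmb2 (0.19, SE 0.08, adjusted p = 0.317) and Cops4 of the COP9 signalosome (0.17, SE 0.08, adjusted p = 0.366). Of 19 chaperone and heat shock genes 15 were higher (median 0.07, turning to -0.03 with centring). Cct3, a subunit of the chaperonin that folds actin and tubulin, ranged from 9.92 to 10.15 in AD_UA (median 10.08) and from 10.15 to 10.27 in ADP_UA (median 10.22), so that 5 ADP_UA mice lay above all AD_UA mice and ADP_UA 3 tied with AD_UA 5. Its difference was 0.15 (SE 0.06, adjusted p = 0.296), and that of the co-chaperone Stip1 was also 0.15 (SE 0.09).

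Neuronal lists lay below the median of all genes. All 3 genes of glutamate receptors and excitatory neurons had a lower mean in ADP_UA (median -0.48, and -0.31 without the mice with high Adora2a), Nptx2 as above, Camk4, a calcium-dependent kinase (-0.48, SE 0.28), and Gria3, an AMPA receptor subunit (-0.27, SE 0.15). Camk4 was highest in AD_UA 3 (11.01), AD_UA 8 (10.98) and ADP_UA 6 (10.43), and in females alone its difference was 0.04. Of 6 genes of GABA receptors and inhibitory neurons 1 was higher, Gabrg1, and the median was -0.21 (-0.12 without the mice with high Adora2a). Gabarapl1, 1 of the 6, is not a GABA receptor subunit and is also counted in the autophagy list. Gabbr2, a GABA-B receptor subunit, was at -0.31 (SE 0.22). Of 7 other receptor and neuropeptide genes 2 were higher (median -0.19). Chrm1, a muscarinic acetylcholine receptor, lay between 10.77 and 11.22 in all AD_UA mice (median 11.04) and reached down to 9.90 in ADP_UA 5 and 10.06 in ADP_UA 2 (median 10.75), while ADP_UA 6 equalled the highest AD_UA mouse. Its difference was -0.40 (SE 0.16, adjusted p = 0.296), and that of Chrm3 was -0.52 (SE 0.28). Of 10 ion channel and pump genes 4 were higher (median -0.12), and the calcium pumps Atp2b2 and Atp2b1 were at -0.53 (SE 0.23) and -0.30 (SE 0.16). Atp2b2 was highest in AD_UA 8, AD_UA 3 and ADP_UA 6. The list medians were -0.13 for GABA receptors and -0.01 for immediate early genes without ADP_UA 5, -0.12 for other receptors without AD_UA 1, and -0.06 for ion channels without AD_UA 7.

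Structural synaptic genes were close to no difference as deposited and mostly lower with centring. Of 14 SNARE and vesicle fusion genes 6 were higher (median -0.04), and 1 was with centring (median -0.14). Stx1a, a syntaxin of the release machinery, was at -0.62 (SE 0.34, adjusted p = 0.428) and Snap25 at -0.26 (SE 0.18). Of 20 presynaptic genes 8 were higher (median -0.02), and 4 were with centring (median -0.12), beside 386 of 760 over all genes. Rab3c, a vesicle GTPase, was at 0.36 (SE 0.23), and in both lists 0 genes had an unadjusted p below 0.05 as deposited, beside 12.6% of all genes. With 1 mouse left out the SNARE median ranged from -0.12 (without ADP_UA 6) to 0.00 (without AD_UA 8), and the presynaptic median from -0.05 (without AD_UA 6) to 0.03 (without ADP_UA 5). Of 4 postsynaptic genes 1 was higher (median -0.07), and of 3 immediate early and activity-dependent genes 0 were (median -0.11). The transgene-related genes did not stand out. App was at 13.91 ± 0.11 in AD_UA and 13.97 ± 0.10 in ADP_UA (0.05, SE 0.07, 95% confidence interval -0.10 to 0.19; -0.05 with centring), and Mapt at 11.11 ± 0.18 and 11.26 ± 0.20 (0.12, interval -0.15 to 0.39). The amyloid precursor and tau list had 5 of 7 higher (median 0.05, turning to -0.05 with centring), and the Alzheimer risk list 7 of 9 (median 0.14), with Cd2ap, an adaptor protein of endocytosis, at 0.25 (SE 0.14).

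The other lists held broad functional classes. Medians above that of all genes were 0.17 for extracellular matrix and adhesion (12 of 17 higher), 0.14 for solute carriers (10 of 15), 0.14 for cell death and survival (4 of 5) and 0.13 for cytoskeleton and axonal transport (16 of 20). With 1 mouse left out, that of extracellular matrix was 0.11 without AD_UA 7, and without AD_UA 3 those of solute carriers and cell death were 0.09 and 0.08, beside 0.08 for all genes. In the first, Col9a3, a collagen chain, was very uneven, from 5.98 to 9.38 in AD_UA and from 6.43 to 10.19 in ADP_UA (1.17, SE 0.71). Medians below that of all genes were 0.09 for small GTPases and regulators (25 of 36), 0.10 for glycolysis (3 of 5), 0.08 for transcription and chromatin (13 of 20), 0.05 for protein kinases (11 of 20), 0.02 for RNA processing (6 of 11) and -0.06 for protein phosphatases (4 of 10). Those from 0.02 to 0.10 turned negative with centring, and those of kinases and RNA processing also turned to -0.03 without AD_UA 3 and without ADP_UA 6. In the RNA processing list, Ptbp1, a splicing repressor, was at 7.08 ± 0.29 in AD_UA and 7.51 ± 0.26 in ADP_UA (0.41, SE 0.18, adjusted p = 0.341). The striatum and thalamus list, which holds Adora2a, had 1 of 3 higher, Pde1c (median -0.41, and -0.17 without the mice with high Adora2a).

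**Figure D4:**
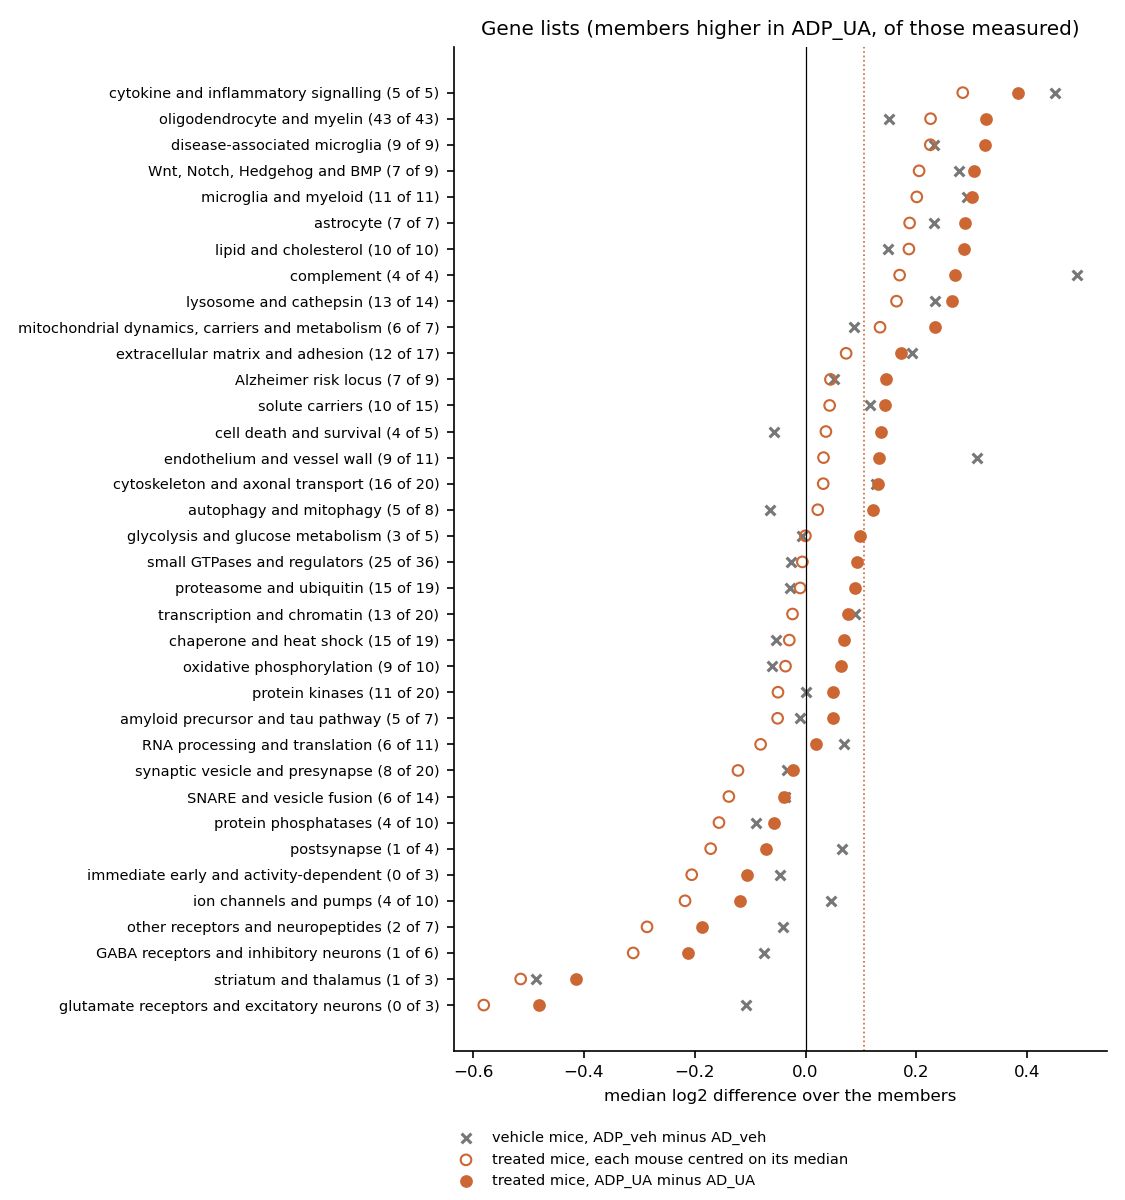
Median log2 difference over the members of each of 36 gene lists, for ADP_UA minus AD_UA as deposited (filled orange) and with each mouse centred on its median (open orange), and for ADP_veh minus AD_veh (grey crosses); the dotted line is the median of 0.10 over all 760 genes, and numbers in brackets give members with a higher mean in ADP_UA of those measured. Glial, lysosomal and lipid lists lie right of the dotted line and receptor lists left of 0 in both scales, while the median of oxidative phosphorylation (0.06) falls below 0 with centring and that of autophagy (0.12) does not.

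The Polb comparison under vehicle shares no mouse with the treated one, so it is an independent set of values for the same genotypes. Limma called 0 of 760 genes there (0%), and 33 had an unadjusted p below 0.05 (4.34%), 24 higher (3.16%) and 9 lower (1.18%), while 456 of all genes were higher in ADP_veh (60%). The differences had the same sign in both comparisons for 506 of 760 genes (66.6%), and their Pearson correlation across genes was 0.532 (Spearman 0.518). This is a description over genes that are not independent of each other and that share the platform, the normalization and 1 fit. Of the 12 genes higher under Urolithin A, 7 were also higher under vehicle, with a median of 0.05 against 0.39, and 2 had an unadjusted p below 0.05 there, Dhrs11 (0.37, SE 0.18) and Zfp36l1 (0.43, SE 0.20). Of the 12 lower genes, 10 were lower under vehicle, with a median of -0.05 against -0.39, and 0 had an unadjusted p below 0.05. The genes were chosen for their treated difference, so a smaller vehicle difference is partly built into these medians.

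Among lists, the vehicle medians were 0.15 for myelin (41 of 43 higher), 0.23 for astrocyte genes (6 of 7), 0.29 for microglia (10 of 11), 0.23 for lysosome (12 of 14) and 0.15 for lipid genes (10 of 10), with all genes at 0.04. Complement had a larger median under vehicle (0.49) than under Urolithin A (0.27), and so did endothelium and vessel wall (0.31 against 0.13). Other lists changed sign. Under vehicle, medians were -0.06 for autophagy (2 of 8 higher) and for oxidative phosphorylation (1 of 10). They were -0.05 for chaperones (6 of 19) and -0.03 for proteasome and ubiquitin (8 of 19). Cd74 differed by 1.12 (SE 0.51) under vehicle and 1.14 (SE 0.55) under Urolithin A. The receptor lists stood nearer 0 under vehicle, with -0.11 for glutamate receptors and excitatory neurons, -0.08 for GABA receptors and -0.04 for other receptors, and Mef2c and Gabrd differed by 0.08 (SE 0.44) and -0.13 (SE 0.41).

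**Figure D5:**
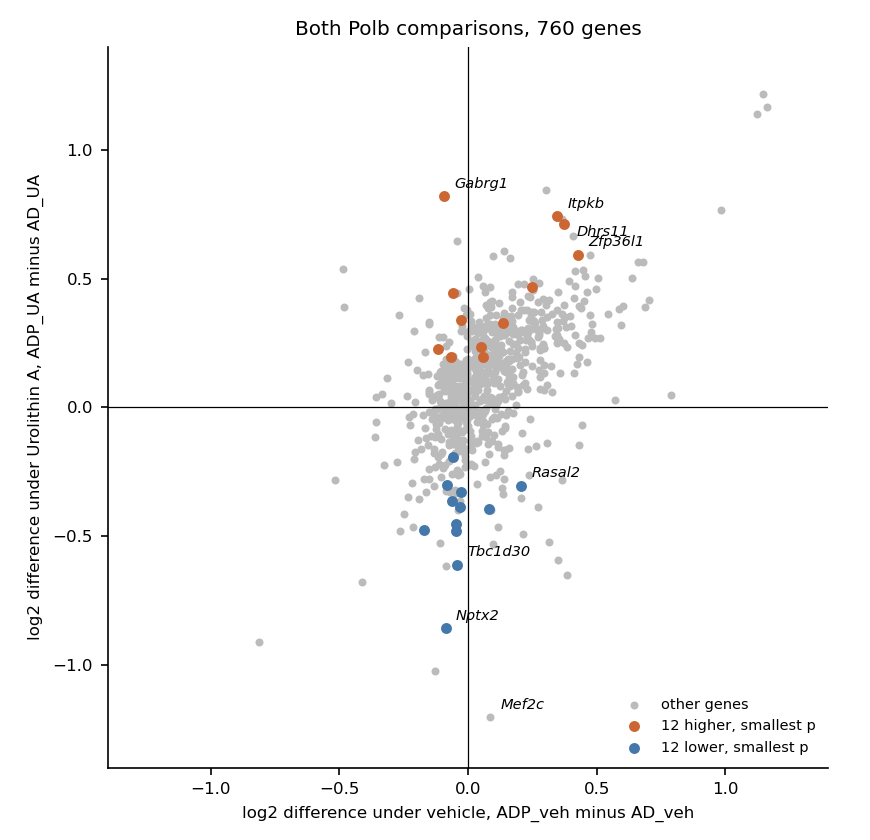
Each point is 1 of 760 genes, with the sex-adjusted log2 difference between the Polb genotypes under vehicle (horizontal axis, ADP_veh minus AD_veh) and under Urolithin A (vertical axis, ADP_UA minus AD_UA), and the 12 higher and 12 lower genes of smallest treated p in colour. The cloud runs from lower left to upper right (Pearson 0.532 across genes), while Gabrg1, at 0.82 under Urolithin A and -0.09 under vehicle, lies off it.

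Whether the Polb difference itself differed between treated and vehicle mice was tested as the treated difference minus the vehicle difference. Limma called 0 of 760 genes (0%), and 29 had an unadjusted p below 0.05 (3.82%), 18 positive (2.37%) and 11 negative (1.45%), fewer than the 38 expected if no gene differed. The smallest p belonged to Glud1, which differed by 0.23 under Urolithin A and by -0.12 (SE 0.07) under vehicle, a change of 0.35 (SE 0.10, unadjusted p = 0.0012, adjusted p = 0.875). Its means were 11.46 ± 0.09 (n = 8) in AD_veh and 11.34 ± 0.16 (n = 7) in ADP_veh, against 11.30 ± 0.15 in AD_UA and 11.54 ± 0.10 in ADP_UA, so the order of the genotypes was reversed between the treatments. Rasal2 (-0.51, SE 0.16), Psmg1 (0.26, SE 0.08) and Gabrg1 (0.91, SE 0.31) came next among the genes described here, each with adjusted p = 0.875.

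The sexes were unevenly split between the treated genotypes, and only 2 ADP_UA mice were male. All 70 higher genes and 25 of the 26 lower genes at an unadjusted p below 0.05 kept their sign in females alone, and all 96 did in males alone, which the choice of genes by the pooled fit favours. Among genes described above, some had the larger difference in males: Nptx2 was at -0.70 in females and -0.96 in males, Mef2c at -0.63 and -1.95, Gabrg1 at 0.62 and 1.14, and Dhrs11 at 0.67 and 0.78. How often this held over all genes was not counted. Both AD_UA males with the highest Adora2a enter the male values. The difference between sexes was called for 0 of 760 genes (0%), and 18 had an unadjusted p below 0.05 (2.37%). The smallest p belonged to Bdh1, the mitochondrial enzyme of ketone body interconversion, at 0.18 in females and -0.48 in males (difference 0.66, SE 0.24, unadjusted p = 0.00992, adjusted p = 0.996).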

How the data were processed

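RNA from 5 mg of hippocampus per mouse was counted on a NanoString nCounter with a mouse Alzheimer disease panel, per the labels' protocols. The authors deposited normalised values on the log2 scale, 760 genes by 35 mice. How they were normalised and corrected for background is not stated in the labels, raw counts were not used here, the depth is therefore unknown, and the number of mice limits the precision. Of the symbols, 750 matched a current mouse gene table by name.

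Values were used as deposited, with no pseudocount and no filter. Limma 3.58.1 (R 4.3.3; lmFit, contrasts.fit, eBayes) was fitted with group and sex over all mice, two-sided, with Benjamini-Hochberg adjustment over 760 genes and a threshold of 0.05. For sex differences, group and sex were combined into 1 factor. The fit was tested on simulated data. Groups and mouse numbers follow the labels; the replicates are separate mice, so p-values measure the spread between mice. No pair of mice among 595 shared more than 4.21% of its values (tolerance 0.005).

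Named genes were the 12 higher and 12 lower of smallest p, up to 4 members of smallest p in each of 36 gene lists with 3 or more measured members, the gene of smallest p for the treatment and for the sex contrast, App and Mapt. A few genes that this rule names are not reported here. Defining cell markers and Adora2a, Pde1b and Enpp2 were added as checks. Fat1, Tmbim6 and Cd74 were named after their values were seen. Members and lists were chosen with earlier results of these data known. Lists were described, not tested; some members are shared between lists, and a few entered by symbol, such as Cflar, an apoptosis regulator, under cytoskeleton. Alternatives are given in the closing section.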

Additional observations from a re-analysis of the deposited data

Results flagged for a closer look

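In 136 groups of 6 or 7 treated mice, 9 held 1 mouse far from the others by Dixon's criterion, where chance gives about 1 in 20. Each group was 1 gene, list mean or sample median in 1 genotype. The genes checked were those named among the 12 higher and 12 lower genes of smallest p. App, Mapt, Bdh1, Adora2a, Enpp2, Mef2c, Fat1 and Tmbim6 were checked too. Other genes described above, such as Gabrd, Cd74 and Hspb8, were not checked. ADP_UA 6 stood above its group for Rasal2 (9.74, others 9.05 to 9.23) and for the list means of SNARE and vesicle fusion (11.178, others 10.651 to 10.821), glycolysis (9.194, others 8.982 to 9.022) and protein kinases (9.6385, others 9.349 to 9.4345). ADP_UA 5 stood above its group for Tmbim6 (11.59, others 11.31 to 11.36), for the list means of cytoskeleton (9.019, others 8.533 to 8.6665) and extracellular matrix (8.8865, others 8.3524 to 8.5253), and for the median over all genes (9.07, others 8.825 to 8.9). AD_UA 5 was low for Slc8a2 (10.59, others 11.09 to 11.42). Some of these values share genes and mice and are not separate events. Why these mice stood apart was not tested.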

How the results depend on the processing

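The 0 called genes remained 0 under every alternative but sample weights, which gave 24. The 96 genes at an unadjusted p below 0.05 became 188 with sample weights, 16 in females, 63 in males and 51 to 167 with 1 mouse left out. Other settings gave 69 (treated mice alone in the fit) to 113 (no sex term). With the treated mice alone in the fit, 59 were higher and 10 lower, against 70 and 26 in the main fit. The replicate block gave 74 genes and 0 called. Mice of the same number correlated in their deviations at 0.533, 0.215, 0.271, 0.0697 and -0.719 for numbers 1, 2, 3, 5 and 6. These values show no consistent pairing by number, and they cannot exclude a shared setting for some numbers. Signs turned in these cases: with the myelin list mean as a covariate, for C1qa (-0.02965), C1qb (-0.07366), Mog (-0.1067) and Mag (-0.1109); in females, for Camk4 (0.0425), Adora2a (0.5617), Serping1 (-0.1942) and Bdh1 (0.1775); and for App with centring (-0.05045) and in males (-0.0375). Mog and Mag are members of the list behind that covariate, so their change of sign is partly built in. With 1 mouse left out Bdh1 ranged from -0.1814 to 0.005935, and the sample median difference from 0.06412 to 0.12 (without AD_UA 6, exact permutation p = 0.04). List medians moved as follows. With centring they were 0.02202 for autophagy, -0.05045 for amyloid precursor and tau, 0.03671 for cell death, -0.04978 for kinases, -0.005734 for small GTPases, -0.02351 for transcription and -0.0811 for RNA processing. With quantile normalization they were -0.01845 for glycolysis, 0.02775 for cell death, -0.02703 for solute carriers, -0.08828 for kinases, -0.01209 for small GTPases and -0.03805 for transcription. Without the dimmest 25% of genes they were -0.05016 for autophagy, -0.02274 for glycolysis and -0.09538 for kinases. The rest were Wnt signalling at 0.1442 in females and 0.0762 with the myelin covariate, solute carriers at -0.01139 with that covariate, kinases at -0.1063 and phosphatases at -0.22 in males, and small GTPases at 0.01356 with sample weights. The causes were not tested, beyond fewer mice or genes where a setting has fewer. Leaving out the mice with high Adora2a was chosen after the data were seen. Background signal was not used here, and no detection limit can be set for low genes such as Trem2.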

Other observations

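With sample weights, the 24 genes past the adjusted threshold included Dhrs11 (0.68, adjusted p = 0.0155 by limma), Ntrk2, Psmg1, Itpkb and Fam213a among those higher in ADP_UA, and Mef2c, Gabrd, Nptx2, Tbc1d30 and Diras2 among those lower. The weights were 0.368 for ADP_UA 6, 0.385 for AD_UA 3, 0.446 for AD_UA 8 and 0.514 for ADP_UA 5, against 4.97 for AD_UA 2 and 3.09 for ADP_UA 4.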
